A study of Rattus norvegicus with 15 samples.

Results

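Levels of 10 genes of the circadian clock were followed across the multifidus muscle of rats in 5 groups. They are Arntl, Clock, Npas2, Per1, Per2, Per3, Nr1d1, Nr1d2, Dbp and Ciart, and all 10 were found by symbol among the 37991 genes of the count table. Each of the 10 passed the filter on low counts that left 17201 genes for testing. RNA was sequenced from 15 libraries of wild type male Sprague Dawley rats, 12 weeks of age. The Control group (n = 2) had no injury, and the other 4 groups had hemilaminectomy with ligation of the left L5 spinal nerve, which injures and denervates the paraspinal muscle. The Surgery group (n = 2) then had no treatment. The pMT group (n = 4) received mitochondria isolated from human plasma, 25 µg at each of 2 sites in the left paraspinal muscle and 50 µg per rat. The VitD group (n = 3) received cholecalciferol at 150 µg per site and 300 µg per rat, and the pMT/VitD group (n = 4) received both agents at these doses. Per the methods, injections followed surgery by 2 weeks and tissue was taken 2 weeks later. The methods describe these times for the Control, Surgery and pMT groups, and those for the VitD and pMT/VitD groups are not given in the sources used here. Rats were kept on a regular light and dark cycle, but the hour of tissue collection is not given in the sources used here. Each rat gave 1 sample in time, so a shift in the phase of the rhythm, a change in its amplitude and a change in mean level cannot be told apart.

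The clock is a feedback loop of transcription. ARNTL (also called BMAL1) pairs with CLOCK or its paralog NPAS2 and activates genes that carry E-box elements, among them the Per genes, Nr1d1, Nr1d2, Dbp and Ciart. The PER proteins act with the CRY proteins to repress this activation, while NR1D1 and NR1D2 repress Arntl through ROR elements, so that Arntl normally peaks in antiphase to Nr1d1 and Dbp. DBP activates genes through D-box elements, and CIART (CHRONO) represses the ARNTL complex. In skeletal muscle the clock times the genes of glucose and lipid use.

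The start site windows of Arntl, Per2 and Ciart are shown because each of these genes separated the Surgery and VitD libraries from the other 10 and its window held a searched motif. The windows are from RefSeq (build GRCr8, 250 bases before to 50 after the start site), are read 5′ to 3′ on the strand of the gene, and carry exact matches to the searched motifs in capitals. Arntl lies on the plus strand at chr1:176766078-176766377, Per2 on the minus strand at chr9:99496944-99497243, and Ciart on the minus strand at chr2:186112197-186112496.
Arntl: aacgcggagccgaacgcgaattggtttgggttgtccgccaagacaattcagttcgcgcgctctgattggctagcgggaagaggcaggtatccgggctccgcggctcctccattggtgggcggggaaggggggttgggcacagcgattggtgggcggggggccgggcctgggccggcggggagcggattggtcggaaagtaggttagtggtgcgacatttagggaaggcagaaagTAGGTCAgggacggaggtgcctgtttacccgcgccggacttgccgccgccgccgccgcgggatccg
Per2: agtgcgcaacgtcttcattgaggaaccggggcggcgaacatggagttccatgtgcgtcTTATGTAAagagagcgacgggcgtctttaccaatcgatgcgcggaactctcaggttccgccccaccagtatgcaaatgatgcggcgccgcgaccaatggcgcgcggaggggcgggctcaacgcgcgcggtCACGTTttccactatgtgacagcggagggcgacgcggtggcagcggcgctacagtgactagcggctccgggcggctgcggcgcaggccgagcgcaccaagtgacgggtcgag
Ciart: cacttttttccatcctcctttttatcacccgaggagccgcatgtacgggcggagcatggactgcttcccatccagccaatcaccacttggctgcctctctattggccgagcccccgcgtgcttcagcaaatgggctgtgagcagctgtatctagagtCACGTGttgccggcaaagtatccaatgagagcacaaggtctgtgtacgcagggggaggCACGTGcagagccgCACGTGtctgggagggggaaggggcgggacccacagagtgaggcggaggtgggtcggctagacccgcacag
The motifs were the E-box CACGTG, its variant CACGTT, the D-box forms TTATGTAA and TTACGTAA, and the ROR element forms TAGGTCA and TGGGTCA, each searched on both strands. The Arntl window held 1 match to TAGGTCA, present in 2.63% of all 33469 RefSeq windows of this length. The Per2 window held 1 match to CACGTT, found in 4.83% of windows, and 1 to TTATGTAA, found in 0.893%. The Ciart window held 3 matches to CACGTG, found at least once in 6.42% of windows. Nr1d1, which has 2 start sites in RefSeq, held 1 match to CACGTT at one and 1 to CACGTG at the other. TGGGTCA, present in 4.09% of windows, and TTACGTAA, present in 0.12%, had no match in the windows of the 10 genes, and 4 of the 10 genes held a match to any motif. A match is a description of letters and not of binding, and the elements of many clock genes lie outside such a window.

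Library totals ranged from 52342134 to 73557878 counts, and levels are given as CPM after TMM scaling, which corrects each library total for differences in composition. The 2 Surgery libraries were the most alike of any pair within a group, although they differed by more than counting noise. Libraries pMT 4 and pMT/VitD 4 stood apart from their groups. Over all tested genes, the SD of the log2 difference from pMT 1 to 3 was 0.716 to 0.841 for pMT 4 and 0.571 to 0.657 for pMT/VitD 4, and from pMT/VitD 1 to 3 it was 0.598 to 0.743 for pMT 4 and 0.774 to 0.838 for pMT/VitD 4. Both ends of this range were thus lower against the other group than against its own for each library, and the counts of called genes are given with and without both. The same held for pMT/VitD 3, at 0.64 to 0.711 against pMT 1 to 3 and 0.751 to 0.774 within its group. Tests are edgeR quasi-likelihood tests with Benjamini-Hochberg adjustment over the 17201 genes, and a gene was called at an adjusted p below 0.05. Nothing in the labels says more than that the samples are separate, so p-values measure the spread between these samples.

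Across the 5 groups, 6 of the 10 clock genes were called for any difference, against 11.8% of all genes tested. They were Dbp (adjusted p = 0.000164), Arntl (adjusted p = 0.000362), Ciart (adjusted p = 0.00100), Npas2 (adjusted p = 0.00463), Per2 (adjusted p = 0.00847) and Nr1d2 (adjusted p = 0.0298). Clock, Nr1d1, Per1 and Per3 were not called by edgeR, with adjusted p from 0.201 to 0.897. The count was also 6 without pMT 4 and pMT/VitD 4, and 6 with DESeq2, while limma voom called all 10. Nr1d2 was the call that depended most on single libraries. Its adjusted p rose above 0.05 after leaving out Control 1 (0.0585), Surgery 1 (0.0763), Surgery 2 (0.0891), pMT 2 (0.0551), pMT/VitD 1 (0.0639), pMT/VitD 2 (0.0526), VitD 2 (0.0962) or VitD 3 (0.0523).

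**Figure D1:**
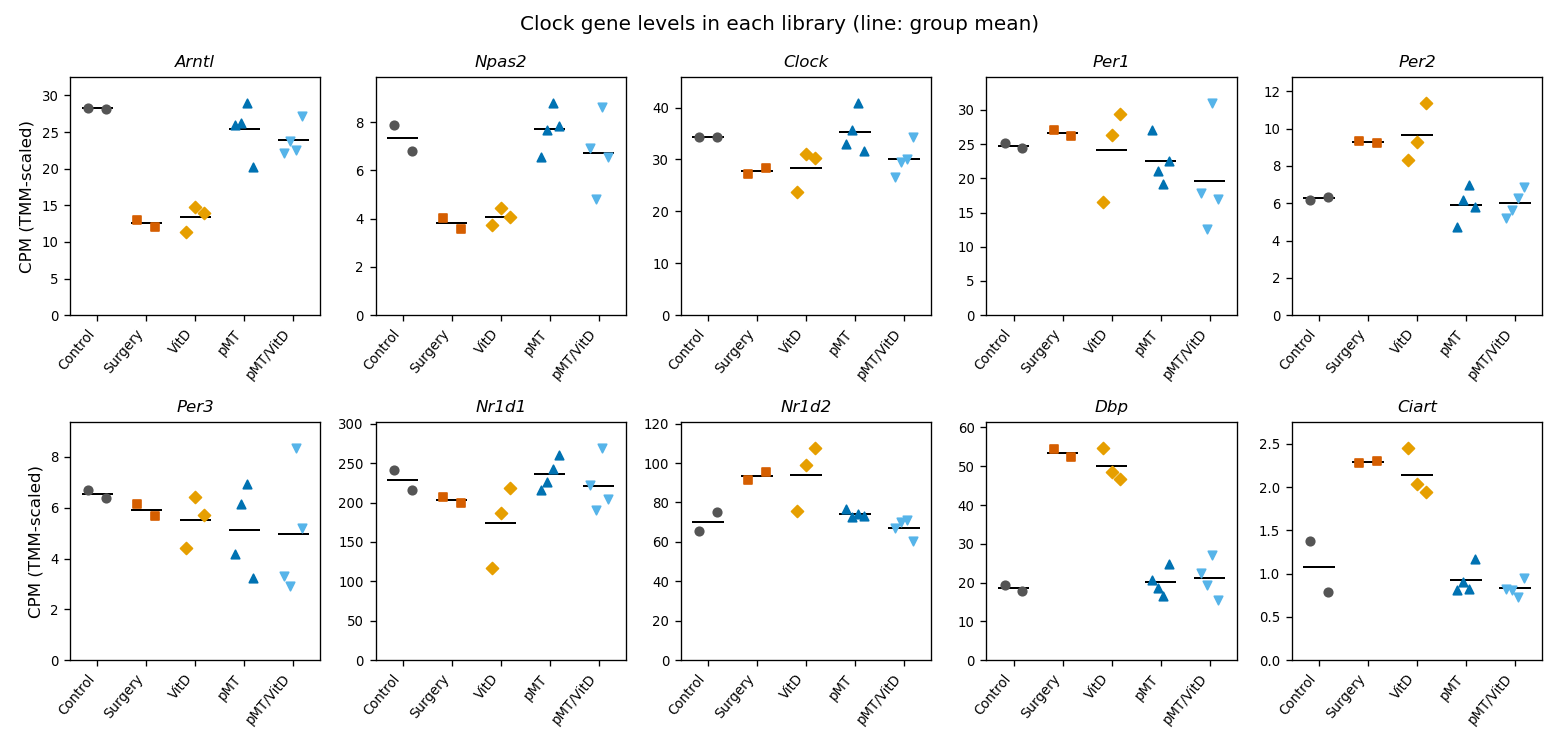
Level of each clock gene (CPM, TMM-scaled, linear axis from 0) in each of the 15 libraries by group, with the line at the group mean. The Surgery and VitD libraries sit apart from the other 10 for Arntl, Npas2, Per2, Dbp and Ciart, and overlap them for the remaining 5 genes.

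Several genes shared 1 pattern over the libraries. In the Surgery and VitD libraries the activators Arntl and Npas2 were lower, and Dbp, Ciart and Per2 were higher, than in each library of the Control, pMT and pMT/VitD groups. Ranges failed to overlap in this way for 5 of the 10 clock genes, 3 higher and 2 lower in the Surgery and VitD libraries, against 10.8% of all genes tested in either direction. This grouping of libraries was chosen after the values were seen and carries no test.

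Among the activators, Arntl stood at 28.2 CPM in both Control libraries. It was at 12.99 and 12.1 CPM in the Surgery libraries and at 11.4, 14.7 and 13.95 CPM in the VitD libraries. The pMT libraries held 25.96, 26.2, 29.0 and 20.2 CPM, and the pMT/VitD libraries 22.1, 23.8, 22.6 and 27.2 CPM. The highest of the 5 low libraries was thus below the lowest of the other 10, which was pMT 4. Npas2, which can replace Clock as the partner of ARNTL, was likewise lower in the Surgery and VitD libraries than in the other 10. Its values were 7.89 and 6.82 CPM in Control, 4.03 and 3.57 CPM in Surgery, and 3.73, 4.42 and 4.09 CPM in VitD. In pMT they were 6.57, 7.69, 8.81 and 7.86 CPM and in pMT/VitD 6.94, 4.82, 8.62 and 6.54 CPM. The gap was narrow for Npas2, because pMT/VitD 2 lay just above VitD 2. Clock, the usual partner, varied less. It ranged from 26.6 to 40.9 CPM over the 10 libraries of the Control, pMT and pMT/VitD groups and from 23.7 to 31.1 CPM over the Surgery and VitD libraries, and these ranges overlapped.

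Of the Per genes, which encode repressors of the loop, Per2 differed between groups and Per1 and Per3 were not called. Per2 was at 6.18 and 6.35 CPM in Control, at 9.36 and 9.22 CPM in Surgery and at 8.29, 9.30 and 11.4 CPM in VitD. It was at 4.73, 6.19, 6.97 and 5.82 CPM in pMT and at 5.23, 5.65, 6.28 and 6.87 CPM in pMT/VitD. All 5 Surgery and VitD libraries exceeded the highest of the others. Per1, which also responds quickly to stress hormones, was at 24.8 ± 0.520 CPM (SD, n = 2) in Control, 26.7 ± 0.63 (n = 2) in Surgery, 22.5 ± 3.33 (n = 4) in pMT, 19.6 ± 7.97 (n = 4) in pMT/VitD and 24.1 ± 6.68 (n = 3) in VitD. Its widest spread was within pMT/VitD, from 12.6 CPM in replicate 2 to 31.0 CPM in replicate 3. Per3 ranged from 2.91 to 8.36 CPM within pMT/VitD, which covered every other group. For both genes the SD of log2 CPM within groups (0.37 for Per1 and 0.48 for Per3) exceeded that between group means (0.20 and 0.21).

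Of the nuclear receptors that repress Arntl, Nr1d2 was called in the 5-group test and Nr1d1 was not, and the difference between them was not tested. Nr1d1 was at 242 and 216 CPM in Control, 207 and 199 CPM in Surgery, 117, 186 and 219 CPM in VitD, 216 to 261 CPM in pMT and 190 to 270 CPM in pMT/VitD. VitD 1 was the lowest library, and the groups overlapped. The 3′ end of Nr1d1 overlaps Thra on the opposite strand in RefSeq, and since the handling of strand in counting is not stated, reads of the shared stretch cannot be told apart. Nr1d2 was at 65.5 and 75.0 CPM in Control and at 91.2 and 95.3 CPM in Surgery. It was at 75.6, 98.9 and 107.8 CPM in VitD, 72.8 to 76.8 CPM in pMT and 60.4 to 71.0 CPM in pMT/VitD. VitD 1 alone of the 5 Surgery and VitD libraries fell within the range of the other 10.

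The output genes showed the widest separation. Dbp was at 19.3 and 17.96 CPM in Control, 54.4 and 52.3 CPM in Surgery and 54.8, 48.6 and 46.7 CPM in VitD. The pMT libraries held 20.6, 18.5, 16.5 and 24.9 CPM, and the pMT/VitD libraries 22.5, 19.3, 27.1 and 15.5 CPM. No library fell between 27.1 and 46.7 CPM. Ciart had few reads, from 34 to 210 counts per library. It was at 1.37 and 0.783 CPM in Control, 2.27 and 2.31 CPM in Surgery, 2.46, 2.04 and 1.94 CPM in VitD, 0.809 to 1.16 CPM in pMT and 0.731 to 0.954 CPM in pMT/VitD. Control 1 was the nearest of the 10 lower libraries to the 5 higher ones.

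Compared per length, the authors' TPM values placed Nr1d1 first, at a mean of 123 ± 23.3 TPM (SD, n = 15). Dbp followed at 26.9 ± 16.8 TPM, Nr1d2 at 23.4 ± 6.90, Arntl at 9.87 ± 3.22, Clock at 4.45 ± 1.06 and Per1 at 3.99 ± 1.11. Per3, Npas2, Per2 and Ciart lay between 1.34 and 1.88 TPM. The order of Dbp and Nr1d2 turned with the group. Dbp was the lower in Control (14.1 ± 0.904 against 18.96 ± 1.85 TPM, SD, n = 2), pMT (16.9 ± 1.37 against 22.5 ± 4.44, n = 4) and pMT/VitD (14.8 ± 2.31 against 16.6 ± 1.40, n = 4). It was the higher in Surgery (50.9 ± 0.874 against 31.3 ± 0.975 TPM, n = 2) and VitD (48.7 ± 5.08 against 31.5 ± 5.06, n = 3). In their means over all 15 libraries, the neighbours Clock and Per1, and the 4 lowest genes, did not differ beyond their spread. Among the lowest genes the order also turned with the group. Npas2 was above both Per2 and Ciart in every Control, pMT and pMT/VitD library, and below both in every Surgery and VitD library. In Control 1 Npas2, Per2 and Ciart were at 2.43, 1.27 and 1.19 TPM, and in Surgery 1 at 1.53, 2.47 and 2.47 TPM.

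The comparison of injured with uninjured muscle asked what surgery alone did. In Surgery against Control, 3 of 10 clock genes were called, against 1.55% of all genes. Dbp rose 2.87-fold (log2 change 1.52, SE 0.22, adjusted p = 0.00667). Arntl fell by 1.17 on the log2 scale (SE 0.17, adjusted p = 0.00615) and Npas2 fell by 0.95 (SE 0.22, adjusted p = 0.0461). Ciart had a log2 change of 1.08 (SE 0.27, adjusted p = 0.0587), Per2 one of 0.57 (SE 0.19, adjusted p = 0.136) and Nr1d2 one of 0.41 (SE 0.15, adjusted p = 0.175), none of them called. With 2 libraries on each side, the count dropped to 0 without Control 1, Control 2 or Surgery 1 and to 1 without Surgery 2, and was 5 without VitD 1, while the fit to these 2 groups alone gave 7.

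In VitD against Control, 5 of 10 were called, against 8.67% of all genes. Arntl fell by 1.08 on the log2 scale (SE 0.15, adjusted p = 0.00238) and Npas2 fell by 0.85 (SE 0.20, adjusted p = 0.0195). Dbp rose by 1.43 (SE 0.21, adjusted p = 0.00334), Ciart rose by 0.99 (SE 0.25, adjusted p = 0.0288) and Per2 rose by 0.62 (SE 0.17, adjusted p = 0.0414). The count was 0 without Control 1, 1 without Control 2 and 3 without VitD 2, and the fit to these 2 groups alone gave 2.

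By edgeR and DESeq2, the groups given pMT did not differ detectably from uninjured muscle in these genes. In pMT against Control, 0 of 10 were called by edgeR, as were 0% of all genes, with 528 of all genes but 0 of the 10 at an unadjusted p below 0.05. DESeq2 and limma voom also called 0 of the 10. The log2 change was -0.15 for Arntl (95% interval -0.45 to 0.15) and 0.11 for Dbp (-0.30 to 0.52). In pMT/VitD against Control, 0 of 10 and 0% of all genes were called by edgeR, with 496 of all genes but 0 of the 10 at an unadjusted p below 0.05. DESeq2 called 0 of the 10 and limma voom 2. The log2 change was -0.24 for Arntl (-0.54 to 0.06) and 0.18 for Dbp (-0.23 to 0.59). Changes of any size inside these intervals remain compatible with the data.

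**Figure D2:**
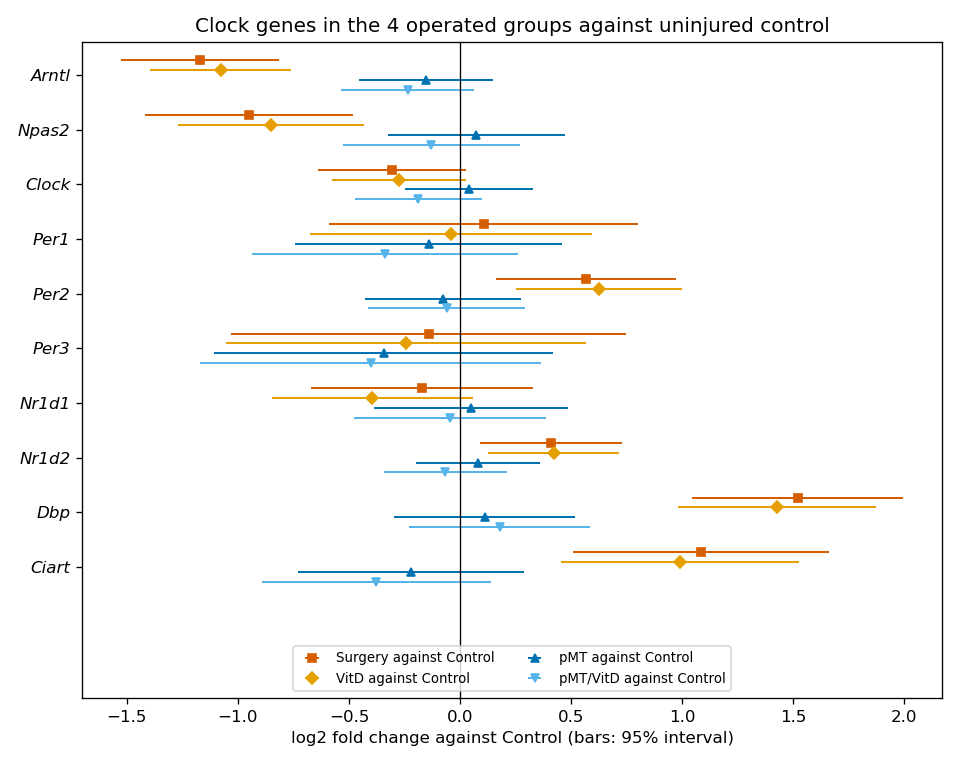
Log2 fold change of each clock gene against Control in the 4 operated groups, with bars for the 95% interval from the edgeR fit. Surgery and VitD lie near -1.17 and -1.08 for Arntl and near 1.52 and 1.43 for Dbp, while pMT and pMT/VitD have intervals that include 0 for all 10 genes.

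Treated operated rats were then compared with the Surgery group. No group had an injection without either agent, so in these comparisons the agent and the injection cannot be told apart. In pMT against Surgery, the contrast of the study's own gene list, 4 of 10 clock genes were called, against 1.94% of all genes. Arntl rose 2.02-fold (log2 change 1.02, SE 0.15, adjusted p = 0.00374) and Npas2 rose 2.03-fold (log2 change 1.02, SE 0.20, adjusted p = 0.0179). Dbp fell by 1.41 on the log2 scale (SE 0.18, adjusted p = 0.00159) and Ciart fell by 1.31 (SE 0.22, adjusted p = 0.00968). Per2 had a log2 change of -0.65 (SE 0.16, adjusted p = 0.0551). The count was 1 without Surgery 1 or without Surgery 2, and 5 without pMT 4 and pMT/VitD 4. The study's methods define differential genes by a 2-fold change and a p below 0.05 in the exact test of edgeR, and also name Benjamini-Hochberg adjustment. Read with the unadjusted p, that rule gave 4 of 10 in the same comparison, against 4.04% of all genes (671 genes). Read with the adjusted p, it also gave 4 of 10, against 2.72% of all genes (451 genes). Neither total equals the number of differential genes that the study reports. Its methods describe more rats in the Surgery and pMT groups than there are libraries here. Whether its list holds these clock genes is not given in the sources used here. The 4 clock genes were Arntl at 2.01-fold and Npas2 at 2.02-fold higher, close to the threshold, and Dbp at 2.67-fold and Ciart at 2.50-fold lower in pMT. Without Surgery 2 or without pMT 3 that count was 2.

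In pMT/VitD against Surgery, 6 of 10 were called, against 7.44% of all genes. Arntl rose by 0.93 (SE 0.15, adjusted p = 0.00295) and Npas2 by 0.82 (SE 0.20, adjusted p = 0.0233). Ciart fell by 1.46 (SE 0.23, adjusted p = 0.00278), Dbp fell by 1.34 (SE 0.18, adjusted p = 0.00141), Per2 fell by 0.63 (SE 0.16, adjusted p = 0.0316) and Nr1d2 fell by 0.47 (SE 0.13, adjusted p = 0.0387), all on the log2 scale. The count was 3 without Surgery 1, 2 without Surgery 2, 3 without pMT/VitD 1 and 6 without the libraries numbered 4.

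The VitD group was next set against the other operated groups. In VitD against Surgery, 0 of 10 were called by edgeR, as were 0% of all genes, with 139 of all genes but 0 of the 10 at an unadjusted p below 0.05, and DESeq2 and limma voom called 0 of the 10. The log2 change was 0.09 for Arntl (95% interval -0.23 to 0.41) and -0.09 for Dbp (-0.51 to 0.33). In VitD against pMT, 5 of 10 were called, against 8.1% of all genes. Arntl fell by 0.93 (SE 0.13, adjusted p = 0.00119) and Npas2 fell by 0.92 (SE 0.17, adjusted p = 0.00494). Dbp rose by 1.31 (SE 0.16, adjusted p = 0.000638), Ciart rose by 1.21 (SE 0.20, adjusted p = 0.00361) and Per2 rose by 0.70 (SE 0.14, adjusted p = 0.00869). In pMT/VitD against VitD, where both groups had an injection with the same dose of cholecalciferol, 6 of 10 were called, against 21.9% of all genes. Arntl rose by 0.84 (SE 0.13, adjusted p = 0.000827) and Npas2 rose by 0.72 (SE 0.17, adjusted p = 0.00871). Dbp fell by 1.25 (SE 0.16, adjusted p = 0.000377), Ciart fell by 1.37 (SE 0.21, adjusted p = 0.000836), Per2 fell by 0.68 (SE 0.14, adjusted p = 0.00486) and Nr1d2 fell by 0.49 (SE 0.11, adjusted p = 0.00865). Under library size scaling the log2 change of Npas2 in this comparison was 0.38 and its call was lost (adjusted p = 0.125). In pMT/VitD against pMT, 0 of 10 and 0% of all genes were called by edgeR, with 1737 of all genes but 0 of the 10 at an unadjusted p below 0.05. DESeq2 called 0 and limma voom 3, and 1 of the 10 was called by edgeR without the libraries numbered 4. The shares of all genes called in these settings are not given here, so the counts have no background beside them. Without pMT/VitD 3 alone, 6 of the 10 clock genes were called across the 5 groups, 5 in pMT/VitD against Surgery, 7 in pMT/VitD against VitD and 0 in pMT/VitD against pMT. These comparisons share libraries and are not independent of each other.

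A factorial reading of the 4 operated groups was added after the values were seen. In it, Surgery was the only group without an injection. Given pMT against not given, 6 of 10 clock genes were called, against 23.3% of all genes. Dbp fell by 1.33 (SE 0.12, adjusted p = 1.65e-05), Ciart fell by 1.34 (SE 0.15, adjusted p = 6.31e-05), Per2 fell by 0.67 (SE 0.11, adjusted p = 0.000733) and Nr1d2 fell by 0.41 (SE 0.09, adjusted p = 0.00394) on the log2 scale. Arntl rose by 0.93 (SE 0.10, adjusted p = 3.50e-05) and Npas2 by 0.87 (SE 0.13, adjusted p = 0.000415). The count stayed between 6 and 7 when any 1 library was left out, and was 6 without both libraries numbered 4. Given VitD against not given, edgeR called 0 of 10 and 0% of all genes, with 0 of the 10 at an unadjusted p below 0.05. The interaction of pMT and VitD also called 0 of 10 and 0% of all genes, again with 0 of the 10 at an unadjusted p below 0.05. Other tools were not run for these contrasts. The interaction estimate was -0.17 for Arntl (95% interval -0.58 to 0.23) and 0.16 for Dbp (-0.37 to 0.70).

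Ratios of counts within a library do not depend on scaling. Those to Arntl describe where each library stood between the opposed arms of the loop. Per2 and Nr1d1 are both E-box genes, so their ratio compares genes of the same arm. The log2 ratio of Dbp to Arntl was -0.55 and -0.65 in Control, and 2.07 and 2.11 in Surgery. It was 2.27, 1.72 and 1.74 in VitD. It was -0.34, -0.50, -0.81 and 0.30 in pMT and 0.02, -0.31, 0.26 and -0.82 in pMT/VitD. All 5 Surgery and VitD libraries thus stood on one side and the remaining 10 on the other, with no library between 0.30 and 1.72. The log2 ratio of Per2 to Nr1d1 was -4.47 to -4.43 in Surgery and -4.33 to -3.81 in VitD, and -5.51 to -4.89 over the other 10 libraries. The ratio of Nr1d1 to Arntl did not separate the groups, since it was 3.995 and 4.04 in Surgery, 3.36, 3.66 and 3.97 in VitD, and reached 3.69 in pMT 4 and 3.58 in pMT/VitD 3. Within the pMT and pMT/VitD groups, pMT 4 had the highest and pMT/VitD 4 the lowest Dbp to Arntl ratio of its group.

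**Figure D3:**
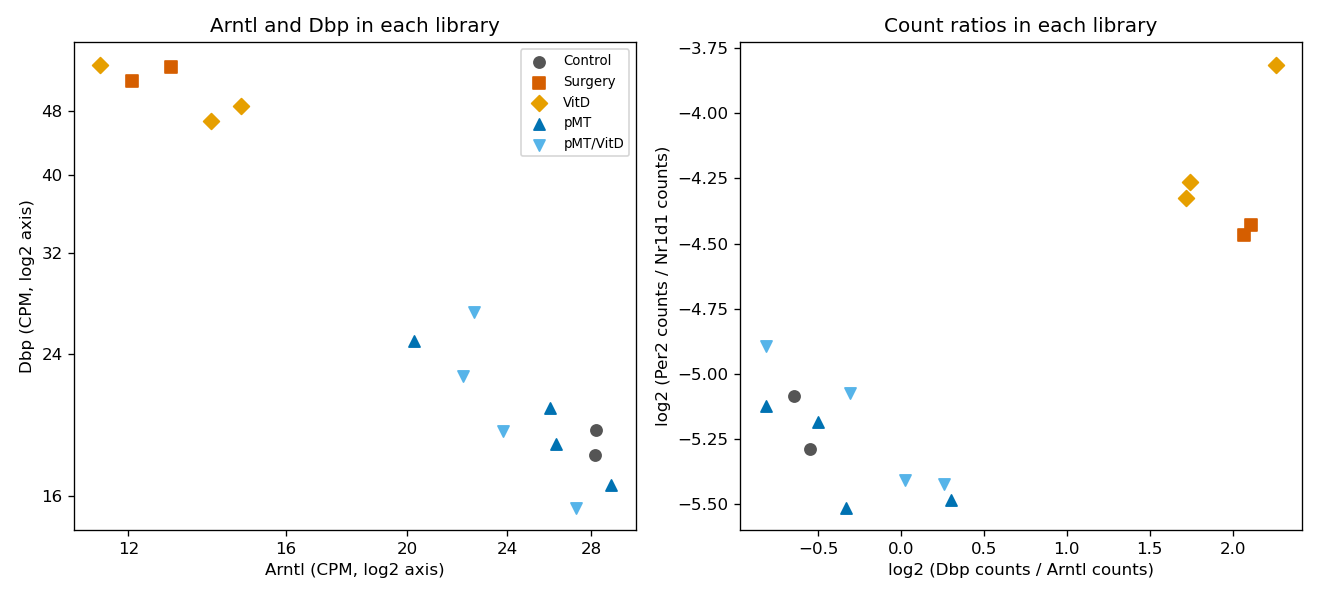
Left, Dbp against Arntl in each library (CPM, log2 axes), and right, the log2 count ratio of Per2 to Nr1d1 against that of Dbp to Arntl, with 1 point per library coloured by group. The 5 Surgery and VitD libraries lie at or above 1.72 for Dbp to Arntl and the other 10 at or below 0.30.

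Because the libraries formed separate clusters, relations of Arntl with the other 9 genes were read within the 10 libraries of the Control, pMT and pMT/VitD groups, a subset chosen after the values were seen. Dbp had a Pearson r of -0.83 with Arntl (two-sided permutation test, p = 0.00292, adjusted over 9 relations 0.0263) and a Spearman rho of -0.77 (permutation p = 0.0122, adjusted 0.0551). Clock had a Pearson r of 0.76 (permutation p = 0.00906, adjusted 0.0408) and a rho of 0.81 (permutation p = 0.00715, adjusted 0.0551). Leaving out pMT 4 and pMT/VitD 1, the libraries farthest from the median of Arntl, r was -0.78 for Dbp and 0.84 for Clock. The other 7 relations had adjusted p from 0.253 to 0.945 for Pearson r. Npas2, which separated the groups with Arntl, had an r of 0.07 within these libraries. Over all 15 libraries after the group means were subtracted, r was -0.80 for Dbp, 0.86 for Clock and 0.09 for Npas2, given without a test. It was -0.38 for Ciart, 0.49 for Per2, 0.27 for Nr1d2, 0.18 for Nr1d1, 0.07 for Per1 and 0.53 for Per3. Within groups, Per2 and Nr1d2 thus did not run opposite to Arntl. Without this subtraction, r was -0.98 for Dbp, -0.90 for Ciart, -0.77 for Per2 and -0.73 for Nr1d2. It was 0.87 for Npas2, 0.75 for Clock and 0.57 for Nr1d1, so Nr1d1 did not run opposite to Arntl. Each had an adjusted permutation p below 0.05, unlike Per1 and Per3. Permutations here and within the 10 libraries ignored the groups, so these p-values also reflect differences between group means. By rho, Per2 and Nr1d1 had an adjusted p of 0.112. Without VitD 1 and Surgery 2, r for Nr1d1 was 0.30.

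Of 17 other clock genes, 16 were tested and 3 were called in the 5-group test, against 11.8% of all genes. Nfil3, which represses through the same D-box elements that DBP activates, was at 75.0 and 65.1 CPM in Control and at 29.3 and 29.5 CPM in Surgery. It was at 18.3, 26.2 and 30.0 CPM in VitD, 46.5 to 67.1 CPM in pMT and 46.2 to 92.3 CPM in pMT/VitD (adjusted p = 0.00185). Nfil3 was therefore lower in each Surgery and VitD library than in the other 10. Cry1, a repressor that acts with the PER proteins, was at 14.3 and 13.4 CPM in Control, 8.81 and 8.07 CPM in Surgery, 5.62, 8.38 and 8.51 CPM in VitD, 10.3 to 13.6 CPM in pMT and 10.2 to 15.7 CPM in pMT/VitD (adjusted p = 0.0149). For both genes the Surgery and VitD libraries lay below the others. With pMT given against not given, 4 of the 16 rose and 0 fell, against 23.3% of all genes called. Among them, Nfil3 rose by 1.22 (SE 0.17, adjusted p = 0.00021), Cry1 by 0.65 (SE 0.13, adjusted p = 0.00248) and Bhlhe41, a repressor at E-boxes, by 0.29 (SE 0.08, adjusted p = 0.0188), on the log2 scale. The median log2 change of the 16 was 0.14, and that of all genes 0.01.

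Of 10 genes known as outputs of the muscle clock, 3 were called in the 5-group test, against 11.8% of all genes. Slc2a4, the insulin-responsive glucose transporter, was at 505 and 516 CPM in Control, 377 and 372 CPM in Surgery and 301, 363 and 397 CPM in VitD. It was at 525 to 570 CPM in pMT and 473 to 553 CPM in pMT/VitD (adjusted p = 0.0104). Tcap, a sarcomere protein gene, was at 117 and 108 CPM in Control, 82.4 and 83.2 CPM in Surgery, 76.8 to 90.3 CPM in VitD, 87.9 to 120 CPM in pMT and 111 to 169 CPM in pMT/VitD (adjusted p = 0.00905). Wee1, a cell cycle kinase gene with E-boxes, was at 7.10 and 6.93 CPM in Control, 6.86 and 8.17 CPM in Surgery, 8.18 to 9.77 CPM in VitD, 5.24 to 6.56 CPM in pMT and 4.86 to 6.41 CPM in pMT/VitD (adjusted p = 0.0187). Slc2a4 separated the Surgery and VitD libraries from the others, whereas Tcap and Wee1 overlapped. The other 7 output genes had adjusted p from 0.393 to 0.929.

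**Figure D4:**
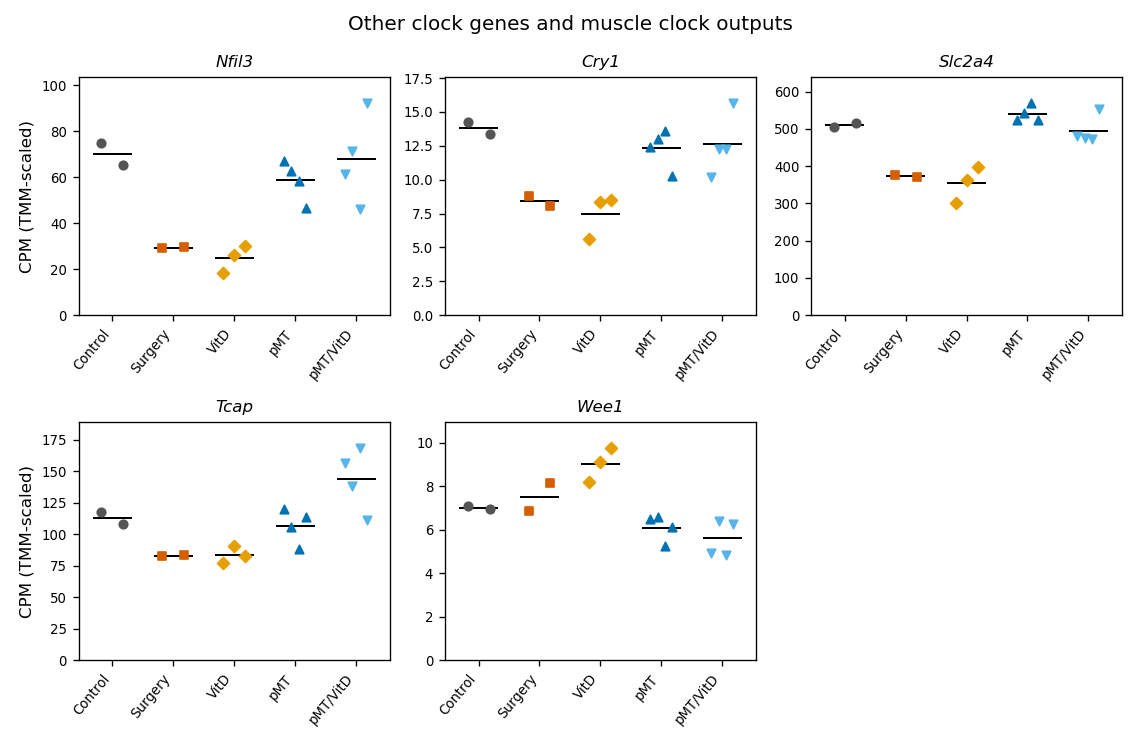
Levels (CPM, TMM-scaled, linear axes from 0) of 2 other clock genes, Nfil3 and Cry1, and 3 muscle clock outputs, all called in the 5-group test, in each of the 15 libraries by group, with the line at the group mean. Nfil3, Cry1 and Slc2a4 are lower in all Surgery and VitD libraries than in the other 10, and Tcap and Wee1 overlap.

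Genes driven by systemic signals that can set the muscle clock were examined beside these. Of 8 genes induced by glucocorticoids, 0 were called in the 5-group test by edgeR, against 11.8% of all genes. Of these 8, 2 had an unadjusted p below 0.05, as did 4508 of the 17201 genes tested. Zbtb16 ranged from 56.4 to 59.4 CPM over Surgery and VitD and from 65.8 to 104 CPM over the other 10 libraries (adjusted p = 0.0588). Cebpd was lowest in VitD 1, at 16.1 CPM (adjusted p = 0.0876). Fkbp5 and Tsc22d3 had adjusted p of 0.921 and 0.826. Of 5 genes that follow body temperature, 0 were called in the 5-group test, against the same 11.8% of all genes. Among them, 1 had an unadjusted p below 0.05, which was Hsp90aa1 (adjusted p = 0.113). With pMT given against not given, 23.3% of all genes were called, so single calls in this contrast are common. In it, Zbtb16 rose by 0.47 (SE 0.11, adjusted p = 0.00803) and Cebpd by 0.65 (SE 0.18, adjusted p = 0.0171). Hsp90aa1 fell by 0.37 (SE 0.12, adjusted p = 0.0443). How many of the 8 and of the 5 genes were called in this contrast is not given here. Other tools were not run on these lists.

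Some markers of other cell types moved with the same libraries. All 6 macrophage markers were called in the 5-group test, against 11.8% of all genes, and their summed level was 153 to 166 CPM in Control, 301 to 305 in Surgery, 268 to 392 in VitD, 111 to 172 in pMT and 101 to 181 in pMT/VitD. Of 5 fibroblast markers, 3 were called, which were Col1a1, Col3a1 and Lum. Dcn and Pdgfra were not (adjusted p = 0.430 and 0.174), and their log2 changes in Surgery against Control were -0.18 and 0.22. The list thus did not move as 1. Sums of the 5 were 2438 to 2467 CPM in Control, 4214 to 4239 in Surgery, 3552 to 6653 in VitD, 2385 to 2825 in pMT and 1799 to 2634 in pMT/VitD. None of these markers was at 0 in any library. Of 8 skeletal muscle markers, all detected in every library, 1 was called, and their sums were 137606 to 151776 CPM in Control, 118679 to 121971 in Surgery, 92262 to 126231 in VitD, 121527 to 135509 in pMT and 143406 to 159777 in pMT/VitD. Of 4 endothelial markers 1 was called, of 5 adipocyte markers 0, and of 4 tested lymphocyte markers 0, with 0 in either of the latter lists at an unadjusted p below 0.05 by edgeR. In whole muscle a change in the share of a cell type and a change in RNA per cell cannot be told apart, and the part of these cells in the clock gene differences was not tested.

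The genes with the pattern most like that of a clock gene were ranked by Pearson r of log2 CPM over the 15 libraries among 11390 genes, as a description, since all share the same libraries. The 10 clock genes themselves were left out of this ranking. The 5 nearest to Dbp were Aif1 (r = 0.97), Vkorc1 (0.97), Myog (0.97), Creld2 (0.96) and Klk1 (0.96). Myog, which encodes the myogenic factor myogenin that is induced on denervation, ranged from 44.8 to 59.1 CPM over Surgery and VitD and from 18.3 to 28.6 CPM over the other 10 libraries. Aif1 is a macrophage gene and ranged from 11.5 to 15.5 CPM against 5.57 to 9.61 CPM. The 5 genes most opposed to Dbp were Palld (r = -0.97), Cacna1a (-0.96), Mpp3 (-0.96), LOC100911725 (-0.96) and Nfil3 (-0.95). The 5 nearest to Arntl were Mpp3 (r = 0.98), LOC100911725 (0.97), Cacna1a (0.97), Pfkfb4 (0.97) and Adamts8 (0.96). LOC100911725 is annotated as similar to Pfkfb4, a regulator of glycolysis, so reads of these copies may be shared and both values are uncertain.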

How the data were processed

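Total RNA of the multifidus was sequenced as paired ends. Per the labels and methods, the authors used Trimmomatic 0.38 for trimming and HISAT2 2.1.0 for alignment to the rat build rn6, sorted reads with SAMtools 1.9 and quantified RefSeq genes with StringTie 2.1.3b. The authors deposited unnormalized read counts per gene, used for all tests, and TPM values, used for levels between genes and for relative gene length. Deposited FPKM values were not used. Strand and multiple alignment handling in counting is not given in the sources used here.

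Counts of 15 libraries were filtered (filterByExpr), scaled by TMM and fitted with edgeR 4.0.16 (R 4.3.3) by robust quasi-likelihood, with 5 groups and no covariate. Contrasts covered 10 pairs and a 5-group F-test, and, chosen after the values were seen, pMT given, VitD given and their interaction. The study's own rule used the edgeR exact test. Log2 CPM used a prior count of 2, and correlations 100000 permutations. Alternatives covered scaling, filters, DESeq2 1.42.0, limma 3.58.1 voom, gene length, samples fitted, replicate block and left out libraries. Scripts were tested on simulated data.

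The clock genes and other lists were chosen with earlier results of these data known. Text names all 10 clock genes, called genes among the other clock genes (1 of them is not reported here), at most the 3 of lowest p of each further list, and the 5 genes nearest to or most opposed to Dbp and nearest to Arntl. Fkbp5, Tsc22d3, Bhlhe41, Dcn and Pdgfra were named after their values were seen. Promoter windows are from RefSeq (GRCr8) and were matched by gene identifier for all 10 genes; coordinates of the rn6 files were not used.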

Additional observations from a re-analysis of the deposited data

Results flagged for a closer look

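Among 26 sets of 4 libraries examined (the levels of the 10 clock genes and their ratios in the pMT and pMT/VitD groups), 1 held a library far from the other 3, where chance at 1 in 20 gives 1.3. The log2 ratio of Nr1d1 to Arntl was 3.69 in pMT 4, against 3.06 to 3.10 in the other 3 pMT libraries. The group mean was 3.23 with pMT 4 and 3.08 without it.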

How the results depend on the processing

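No clock gene call reversed direction under any alternative run. Of 1018 recomputed values for 41 calls of a clock gene in a comparison, 934 kept the call and 84 lost it with the same direction, 65 of these by leaving out 1 library. By gene, Npas2 lost 26 of 200, Nr1d2 22 of 96, Per2 16 of 148, Arntl 8 of 200, Ciart 7 of 174 and Dbp 5 of 200. Limma voom with quality weights called more: 10 of 10 in the 5-group test, 7 in Surgery against Control, 2 in pMT/VitD against Control, 7 in pMT against Surgery, 3 in pMT/VitD against pMT, 9 in VitD against pMT, and 11 of the 16 other clock genes. In Surgery against Control, scaling by library size alone gave 5, removal of a gene length trend 5, and the quasi-likelihood or exact test on the 2 groups alone 7. The shares of all genes called by limma voom or on 2 groups alone are not given here. Those counts therefore have no background beside them. VitD against Control gave 2 when fitted alone, and pMT/VitD against pMT gave 1 without both libraries numbered 4. Library size scaling gave 2 under the rule of the study. It also lost the call of Npas2 in Surgery against Control (adjusted p = 0.101), VitD against Control (adjusted p = 0.0833), pMT/VitD against Surgery (adjusted p = 0.110) and pMT/VitD against VitD (adjusted p = 0.125). Leaving out 1 library gave 0 to 5 in Surgery against Control, 0 to 6 in VitD against Control, 1 to 5 in pMT against Surgery, 2 to 6 in pMT/VitD against Surgery and 2 to 4 under the rule of the study; where an arm held 1 library, it was assumed to vary like the other groups. Library size scaling moved the median log2 change of all genes to as far as 0.27 in VitD against Control and -0.34 in pMT/VitD against VitD. Of the 9 relations with Arntl, 7 passed over all 15 libraries, 3 with library size scaling and 2 within the 10 libraries, in permutations that ignored the groups. The cause of these shifts was not tested.

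Libraries of the same replicate number showed little sign of pairing. Of 24 same-numbered pairs, 2 correlated above 0.1 in their deviations from the group mean, as did 8 of 64 pairs of different number. Of 15 libraries, 5 correlated best with their own number. In groups of 2 the deviations mirror each other, so this check cannot exclude a shared batch. With the replicate block, 5 clock genes were called in the 5-group test, 2 in Surgery against Control, 4 in VitD against Control, 4 in pMT against Surgery, 4 in pMT/VitD against Surgery, 6 in pMT/VitD against VitD and 5 in VitD against pMT. Groups of 2 to 4 libraries limit the precision, and depth was lowest for Ciart, at 34 to 210 counts per library.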
